A study of Mus musculus with 15 samples.

Results

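Protocadherins are cell-surface adhesion proteins of the cadherin superfamily. They were taken as the rows of the count table whose identifier maps to a protein-coding mouse gene with a symbol starting with Pcdh. There are 69 of them among the 55416 rows: 14 in the alpha cluster, 22 in the beta cluster, 21 in the gamma cluster and 12 non-clustered genes. The non-clustered genes lie outside the clusters, though Pcdh1 and Pcdh12 are on the same chromosome 18, beyond the gamma genes. The symbol Pcdha11 is carried by 2 identifiers of the alpha cluster, which were kept apart. Pcdhgb8 is annotated as a polymorphic pseudogene and was left out.

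In mice the alpha, beta and gamma genes stand side by side on chromosome 18. Each alpha and gamma gene joins its own large first exon, which encodes the extracellular part, to constant exons shared by its cluster, while each beta gene stands alone without a constant region. A neuron transcribes a small set of these genes by promoter choice, which depends on CTCF and cohesin, and the proteins bind like copies on facing membranes, giving neurons a surface identity used in dendrite self-avoidance. The C-type genes at the ends of the alpha and gamma clusters are regulated differently and are active more uniformly, and the delta protocadherins among the non-clustered genes act in axon growth, cell sorting and synapse formation.

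The cells were neural precursors grown from the hippocampus of female mice aged 6 weeks. For the Atf3 line a cassette with the Atf3 coding sequence under the doxycycline-driven TRE3G promoter was inserted by piggyBac transposition, for the Atf4 line the cassette carried Atf4, and the control line received the Tet-ON and puromycin cassette without either factor. All 3 lines were shifted to differentiation by withdrawal of EGF and FGF, received 100 ng/ml doxycycline at that moment and were harvested 10 h later, with 5 libraries per line and paired reads of 150 bases. Cells of each line are called Atf3, Atf4 and control cells here. Each construct is represented by 1 line, so line and transgene cannot be told apart. The labels do not say that the 5 libraries came from separate cultures, so the p-values measure the spread between libraries, which may be technical.

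Libraries held 53.7 to 69.6 M counts. Levels are CPM, counts scaled to a common library total after TMM, a trimmed-mean scaling of edgeR. All log2 fold changes (± SE) and p-values adjusted over the 18244 genes tested come from edgeR's quasi-likelihood test, with adjusted p under 0.05 called. Atf3 averaged 1941 CPM in Atf3 cells, 1.4 CPM in Atf4 cells and 5.02 CPM in control cells, where replicates 4 and 5 stood apart with 11 and 7.55 CPM against 1.67 to 3.02 CPM in the other 3 control libraries. Atf4 averaged 250.3 CPM in Atf3 cells, 153 CPM in Atf4 cells and 83.2 CPM in control cells, so it was higher in both lines. The precursor markers Nes and Sox2 averaged 1018, 834 and 662 CPM and 224, 233 and 228 CPM in the Atf3, Atf4 and control lines, in that order, while Prom1 of the same list averaged 0.0334, 0.0303 and 0.0998 CPM. Because these are bulk samples, fewer cells of a type and less RNA per cell cannot be told apart.

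All 69 genes together took 0.0924% ± 0.00359 of the counts in Atf3 cells, 0.0985% ± 0.00237 in Atf4 cells and 0.112% ± 0.00228 in control cells (SD, n = 5 libraries each). These are shares of plain library totals. After TMM their sum was 977 ± 35.3 CPM in Atf3 cells, 970 ± 25.6 CPM in Atf4 cells and 1079 ± 18.9 CPM in control cells. The order of the Atf3 and Atf4 lines therefore depends on the scaling. Of the 69 genes, 54 passed the filter on low counts and were tested: 3 alpha, 21 beta, 20 gamma and 10 non-clustered genes. The other 15 had 0 to 107 counts in all 15 libraries together; they are Pcdha1 to Pcdha8, both identifiers named Pcdha11, Pcdhac1, Pcdhb1, Pcdhga10, Pcdh12 and Pcdh20. Pcdhga10 has no exon base that another gene does not share, so its 2 counts carry no information on its expression.

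Against the control line, 40 of the 54 tested protocadherin genes were lower in Atf3 cells, 10 were higher and 4 were not called. Calls were frequent in this comparison, since 73.2% of all tested genes were called, 36.8% higher and 36.3% lower. The tested protocadherins had a median log2 fold change of -0.63, beside -0.02 for all tested genes. In the Atf4 line 38 of 54 were lower, 10 higher and 6 not called, where 61.6% of all tested genes were called, 31.9% higher and 29.7% lower, and the medians were -0.49 for the protocadherins and -0.000849 for all tested genes. Both comparisons use the same 5 control libraries. Without control replicates 4 and 5 the Atf3 line had 40 lower and 8 higher and the Atf4 line 38 lower and 7 higher.

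**Figure D1:**
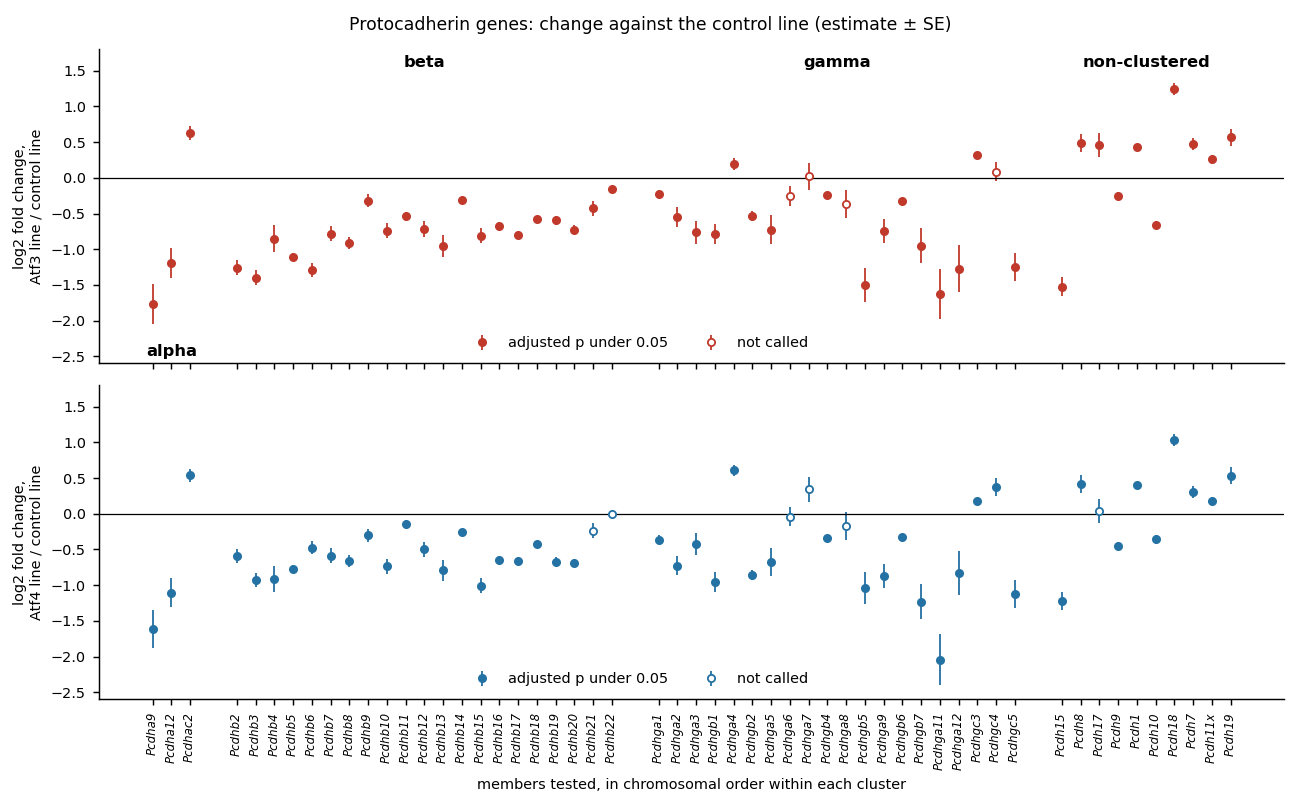
Log2 fold change (y axis, estimate ± SE) of each of the 54 tested protocadherin genes in Atf3 cells (upper panel) and the Atf4 line (lower panel) against the control line, in chromosomal order within the alpha, beta, gamma and non-clustered groups (x axis). Filled points passed adjusted p under 0.05: all 21 beta genes lie below 0 in Atf3 cells, whereas 7 of the 10 non-clustered genes lie above it.

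The share of genes called lower differed with level across the whole table, and of the 54 tested protocadherins 10 averaged under 1 CPM and 27 averaged 1 to 10 CPM. Among all tested genes under 1 CPM, 39.8% were lower in Atf3 cells, with a median log2 fold change of -0.41, and 26.2% in Atf4 cells, with a median of -0.20. Among all tested genes averaging 1 to 10 CPM, 45.0% were lower in Atf3 cells, with a median log2 fold change of -0.17, and among those at 10 CPM or more 31.5% were lower, with a median of 0.12. The 11 beta genes at 1 to 10 CPM were all lower, with a median of -0.78, and so were the 8 beta genes at 10 CPM or more, with a median of -0.59. In the Atf4 line 10 of those 11 and 7 of those 8 were lower, beside 34.5% and 29.6% of all tested genes at these levels.

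Counts on these genes depend on how reads from shared exons were handled. All 14 alpha and all 21 gamma genes share exon bases with other genes in the annotation, 48.6 to 93.0% of an alpha gene and 31.5 to 100% of a gamma gene, but only 3 of the 22 beta genes do. Of 921 genes in the table that have no exon base of their own, 93.3% had 0 counts in all libraries, against 35.9% of all rows of the table, so an alpha or gamma row here reflects mostly its own variable exon and not the constant exons. Levels between genes are therefore compared as CPM per kb of unshared exon. Pcdhb12 shares 61.6% of its 150-base words with other genes' transcripts and its value is uncertain, as to a lesser degree is that of Pcdh7, with 24.2%. The gamma genes, whose words include the constant exons, had a median of 44.1%. Among those tested, Pcdhgc3 (73.6%), Pcdhga11 (69.6%) and Pcdhga4 (62.5%) shared the most, so their values are uncertain as well. The alpha genes had a median of 54.2%. The tested alpha genes Pcdha12 (59.7%), Pcdha9 (53.6%) and Pcdhac2 (47.3%) are uncertain for the same reason.

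The beta genes gave the most uniform picture: all 21 tested were lower in Atf3 cells, by log2 fold changes of -1.40 to -0.16 with a median of -0.74, and in 18 of them every Atf3 library lay below every control library, as 28.7% of all tested genes did. In the Atf4 line 19 of 21 were lower, with a median of -0.65, and in 17 no library overlapped, against 21.8% of all tested genes. None was higher in either line under any alternative tried. The summed level of the 22 beta genes was 171 ± 8.73 CPM in Atf3 cells, 191 ± 7.91 CPM in Atf4 cells and 265 ± 6.42 CPM in control cells (SD, n = 5 each). No library of the Atf3 line (163 to 185 CPM) or Atf4 line (182 to 198 CPM) reached the lowest control library, which had 255 CPM.

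The 3 beta genes with the highest mean CPM were Pcdhb16, Pcdhb18 and Pcdhb22, which all encode adhesion proteins with cadherin repeats and no constant domain. Per kb of unshared exon the order differed. In control cells Pcdhb5 had 6.17 CPM per kb, above Pcdhb18 with 5.57 and Pcdhb22 with 4.20, but it was below both in Atf3 and Atf4 cells. Pcdhb16 (ENSMUSG00000047910, chr18:37477814-37483038, plus strand, GRCm38) had 23.3, 26.8, 26.3, 23.4 and 27.4 CPM in Atf3 cells and 26.8, 27, 25.4, 26.2 and 24.4 CPM in Atf4 cells. Control cells had 42.2, 42.5, 42.6, 41.4 and 35.4 CPM. Control replicate 5 lay below the other control libraries, yet no Atf3 or Atf4 library came near it, and the log2 fold change was -0.68 ± 0.06, adjusted p = 4.28e-09 in Atf3 cells, and -0.65 ± 0.06, adjusted p = 1.61e-08 in Atf4 cells. Pcdhb18 had 17.7, 20.4, 18.3, 18.8 and 18.5 CPM in Atf3 cells and 21.4, 22.4, 19.3, 21.2 and 20.2 CPM in Atf4 cells. The control libraries held 28.4, 29.5, 28.3, 27.2 and 26.8 CPM. Its lines were also separated from the control, with a log2 fold change of -0.58 ± 0.05, adjusted p = 2.60e-09 in Atf3 cells, and -0.42 ± 0.05, adjusted p = 3.42e-07 in Atf4 cells. Pcdhb22, at the end of the cluster nearest the gamma genes, was the least changed. It had 22.5, 25, 24.4, 20.8 and 22.8 CPM in Atf3 cells and 24.5, 26.3, 25, 27.2 and 26 CPM in Atf4 cells. In control cells the values were 24.7, 27.5, 25.8, 25.3 and 25.8 CPM. Its Atf3 libraries overlapped the control libraries, with a log2 fold change of -0.16 ± 0.05, adjusted p = 0.00738 that reached adjusted p = 0.0532 without a filter on low counts, and the Atf4 line was not called (adjusted p = 0.975).

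The beta genes with the largest fall in each line, Pcdhb3 and Pcdhb15, were less abundant. Deep falls were not limited to scarce genes: Pcdhb5, at 21.8 CPM in control cells, had a log2 fold change of -1.10 ± 0.06 in Atf3 cells. Pcdhb3 fell most in Atf3 cells and had 0.98, 1.26, 1.21, 1.01 and 1.48 CPM in Atf3 cells and 1.64, 1.61, 1.58, 1.82 and 1.6 CPM in Atf4 cells. Its control values were 3.26, 3.06, 3.18, 3.2 and 3.03 CPM. All libraries of both lines were below all control libraries, and the log2 fold change was -1.40 ± 0.10, adjusted p = 6.83e-10 in Atf3 cells, and -0.93 ± 0.10, adjusted p = 2.04e-07 in Atf4 cells. Pcdhb15 fell most in Atf4 cells and had 1.66, 1.78, 1.7, 1.79 and 1.85 CPM in Atf3 cells and 1.79, 1.63, 1.48, 1.38 and 1.38 CPM in Atf4 cells. Control libraries of this gene had 2.83, 3.31, 3.71, 2.77 and 2.86 CPM. Here too the lines stood clear of the control, with -0.81 ± 0.10, adjusted p = 1.11e-06 in Atf3 cells, and -1.01 ± 0.10, adjusted p = 1.33e-07 in Atf4 cells. Pcdhb6 differed most between the Atf3 and Atf4 lines. It had 3.16, 3.84, 3.27, 2.98 and 3.72 CPM in Atf3 cells and 6.95, 6.5, 5.49, 5.86 and 5.06 CPM in Atf4 cells. Against these, control cells had 8.94, 8.89, 8.07, 8.6 and 7.16 CPM. Its 3 lines did not overlap, with the Atf4 libraries between the others, and the log2 fold change was -1.29 ± 0.10, adjusted p = 6.83e-10 in Atf3 cells, and -0.48 ± 0.09, adjusted p = 0.000182 in Atf4 cells.

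Along the chromosome the fall in Atf3 cells was deeper at the start of the beta cluster, which runs from base 37264938 to 37524479 of chromosome 18 on the plus strand. The 7 genes Pcdhb2 to Pcdhb8 had log2 fold changes of -1.40 to -0.78, with a median of -1.10, and the 14 genes Pcdhb9 to Pcdhb22 had -0.95 to -0.16, with a median of -0.64. In the Atf4 line the medians were -0.66 and -0.58. Over the 21 beta genes the rank correlation of position with log2 fold change was 0.69 in Atf3 cells and 0.31 in Atf4 cells. Level ran along the cluster as well, with a rank correlation of 0.55 between position and mean CPM. Mean CPM and log2 fold change had a rank correlation of 0.51 in Atf3 cells and 0.49 in Atf4 cells. The cut after Pcdhb8 followed no stated rule and the genes share the same libraries, so these are descriptions without a test.

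**Figure D2:**
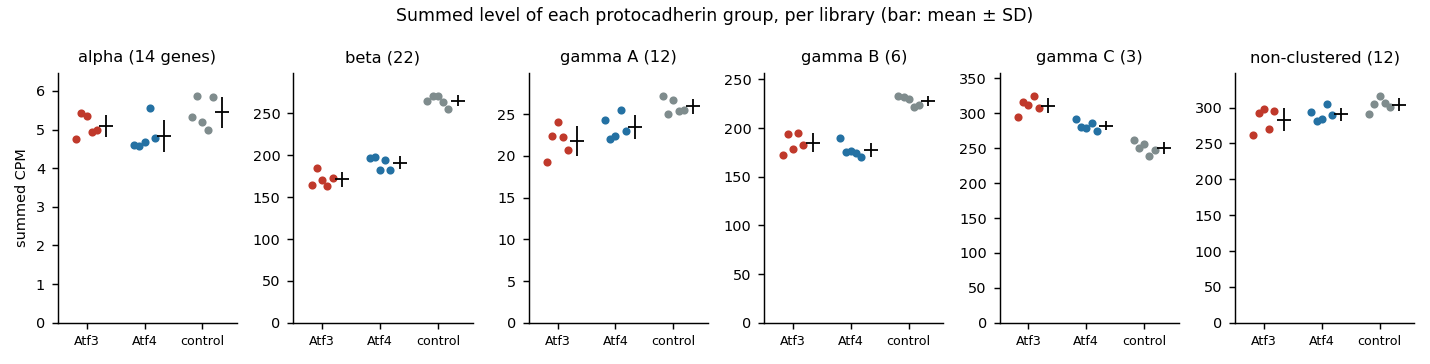
Summed CPM (y axis, from 0) of the genes of each protocadherin group in each of 5 libraries per line (x axis, points), with the mean ± SD of the libraries at the right of each line. The beta and gamma B sums of the Atf3 and Atf4 lines lie below every control library, and the gamma C sums lie above them.

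In the gamma cluster, 14 of 20 tested genes were lower in Atf3 cells and 2 were higher, and 14 were lower and 3 higher in Atf4 cells. Of all tested genes 36.3% were lower and 36.8% higher in Atf3 cells, and 29.7% and 31.9% in Atf4 cells. Of the 10 gamma genes averaging 1 to 10 CPM, 5 were lower in Atf3 cells and 5 in Atf4 cells. At that level 45.0% (Atf3) and 34.5% (Atf4) of all tested genes were lower. The gene groups A and B supplied 13 of the falls in each line, and the genes called higher were Pcdhgc3 and Pcdhga4 in both lines and Pcdhgc4 in Atf4 cells. The summed level of the whole cluster was 517 ± 21.4 CPM in Atf3 cells, 483 ± 14.5 CPM in Atf4 cells and 505 ± 13.8 CPM in control cells. Without Pcdhgc3 the sum of the other 20 genes was 209 ± 10.6 CPM in Atf3 cells, 204 ± 7.53 CPM in Atf4 cells and 258 ± 5.63 CPM in control cells (SD, n = 5 each). That remainder was lower in every Atf3 and Atf4 library than in any control library, at most 220.5 and 217 CPM against at least 252 CPM.

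Pcdhgb4 and Pcdhgb6 were the most abundant A or B genes. Pcdhgb6 (ENSMUSG00000103088, chr18:37742094-37841873, plus strand) had 85.3, 95.1, 86.8, 100.2 and 88.7 CPM in Atf3 cells and 98.4, 91.5, 90.1, 88.7 and 85.3 CPM in Atf4 cells. Control cells had 116, 115, 113, 112 and 115 CPM. Pcdhgb4 had 79.7, 91.1, 83.6, 87 and 86.7 CPM in Atf3 cells and 84.8, 77.4, 79.9, 79.9 and 79 CPM in Atf4 cells. The control libraries held 104, 104, 104, 98.6 and 97.7 CPM. Both genes were below the control in all 10 libraries of the Atf3 and Atf4 lines. For Pcdhgb6 the log2 fold change was -0.32 ± 0.04, adjusted p = 2.78e-06 in Atf3 cells, and -0.33 ± 0.04, adjusted p = 3.55e-06 in Atf4 cells. For Pcdhgb4 it was -0.25 ± 0.04, adjusted p = 9.74e-06 in Atf3 cells, and -0.34 ± 0.04, adjusted p = 2.86e-07 in Atf4 cells.

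The deepest gamma fall was in Pcdhga11, which was scarce. It had 0.166, 0.091, 0.0878, 0.0558 and 0.162 CPM in Atf3 cells and 0.0309, 0.154, 0.104, 0.07 and 0.0539 CPM in Atf4 cells. In control cells the values were 0.305, 0.358, 0.545, 0.326 and 0.252 CPM. The control libraries were higher than all others, with a log2 fold change of -1.63 ± 0.35, adjusted p = 0.000357 in Atf3 cells, and -2.04 ± 0.36, adjusted p = 7.08e-05 in Atf4 cells. Among the 7 gamma genes averaging under 1 CPM all were lower in both lines, beside 39.8% (Atf3) and 26.2% (Atf4) of all tested genes at that level. Over the 20 gamma genes the rank correlation of mean level with log2 fold change was 0.80 in Atf3 cells and 0.64 in Atf4 cells.

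Pcdhga4 was the A gene called higher. It had 4.53, 5.2, 5.67, 5.16 and 4.89 CPM in Atf3 cells and 7.35, 6.75, 6.53, 6.88 and 6.41 CPM in Atf4 cells. Its control values were 4.74, 4.55, 4.62, 3.66 and 4.69 CPM. All Atf4 libraries exceeded all others, with a log2 fold change of 0.61 ± 0.08, adjusted p = 2.10e-06 against control and 0.41 ± 0.08, adjusted p = 0.000355 against the Atf3 line. The Atf3 line overlapped the control, and its log2 fold change of 0.19 ± 0.08, adjusted p = 0.0368 lost the call without control replicate 2, 3 or 4, without Atf3 replicate 2, 3 or 4, without Atf4 replicate 2, 3, 4 or 5, without controls 4 and 5 together (adjusted p = 0.191), with the replicate block (0.0561), with only the 2 lines compared (0.0544), with the filter at 1 CPM (0.126) and with plain library totals, where it was 0.06 with adjusted p = 0.524. Over the libraries left out singly that ended the call the adjusted p was 0.0542 to 0.192. Without control replicate 4, the lowest control library, it was 0.11 with adjusted p = 0.192.

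The C-type genes did not move as a block. Pcdhgc3, which promotes dendrite branching in mouse cortical neurons, was the most abundant protocadherin of these cultures, at 169, 153 and 136 CPM per kb of unshared exon in the Atf3, Atf4 and control lines, in that order. It had 293, 313, 308, 322 and 304 CPM in Atf3 cells and 289, 277, 276, 283 and 270.3 CPM in Atf4 cells. Control libraries of this gene had 257, 247, 251, 234 and 244 CPM. The 3 lines did not overlap and the Atf3 line was highest, with a log2 fold change of 0.32 ± 0.03, adjusted p = 7.29e-08 in Atf3 cells, and 0.18 ± 0.03, adjusted p = 0.000149 in Atf4 cells. Of the gamma counts, Pcdhgc3 supplied 59.6% ± 0.478 in Atf3 cells, 57.7% ± 0.398 in Atf4 cells and 48.9% ± 0.486 in control cells (SD, n = 5 each).

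Pcdhgc5, a C-type gene whose protein binds GABA-A receptors, was scarce and lower. It had 0.795, 0.546, 1.11, 0.987 and 0.99 CPM in Atf3 cells and 0.633, 1.07, 0.972, 0.98 and 1.22 CPM in Atf4 cells. Against these, control cells had 1.86, 2.2, 2.21, 2.8 and 1.5 CPM. Every Atf3 and Atf4 library lay below the lowest control library, with a log2 fold change of -1.25 ± 0.20, adjusted p = 1.48e-05 in Atf3 cells, and -1.12 ± 0.19, adjusted p = 6.08e-05 in Atf4 cells. Pcdhgc4, which in mice is needed for the survival of neurons, had 1.68, 1.84, 1.93, 1.82 and 2.16 CPM in Atf3 cells and 2.08, 1.97, 2.07, 2.49 and 3.02 CPM in Atf4 cells. Control cells had 1.77, 2.24, 1.76, 1.69 and 1.5 CPM. Its lines overlapped: the Atf3 line was not called (adjusted p = 0.588), and the log2 fold change of the Atf4 line, 0.38 ± 0.13, adjusted p = 0.0181, lost the call without Atf4 replicate 5 (0.25, adjusted p = 0.0811), without control replicate 5 (0.30, adjusted p = 0.0628) and without control replicates 4 and 5 (0.26, adjusted p = 0.156).

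The alpha cluster was nearly silent. Its 14 genes summed to 5.09 ± 0.285 CPM in Atf3 cells, 4.84 ± 0.416 CPM in Atf4 cells and 5.45 ± 0.395 CPM in control cells (SD, n = 5 each), and the 3 lines overlapped. The 3 genes that were tested did not move together. Pcdhac2, the C-type gene whose protein is needed for the spacing of serotonergic axons in mice, had 4.18, 4, 3.85, 3.63 and 3.68 CPM in Atf3 cells and 3.18, 3.27, 3.65, 4.31 and 3.84 CPM in Atf4 cells. The control libraries held 2.42, 2.86, 2.27, 2.3 and 2.68 CPM. It was higher in every library of both lines, with a log2 fold change of 0.63 ± 0.10, adjusted p = 1.02e-05 in Atf3 cells, and 0.54 ± 0.10, adjusted p = 8.14e-05 in Atf4 cells. Its share of the alpha counts was 76.3% ± 6.57 in Atf3 cells, 75.3% ± 4.65 in Atf4 cells and 46% ± 1.86 in control cells.

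Pcdha12 and Pcdha9, alternate alpha genes, were lower. Pcdha12 had 0.277, 0.801, 1.05, 0.949 and 0.876 CPM in Atf3 cells and 0.942, 0.997, 0.642, 0.945 and 0.682 CPM in Atf4 cells. In control cells the values were 1.8, 1.74, 1.93, 1.69 and 1.94 CPM. Atf3 replicate 1 was the lowest library, all 10 were below the control, and the log2 fold change was -1.19 ± 0.21, adjusted p = 5.82e-05 in Atf3 cells, and -1.10 ± 0.21, adjusted p = 0.00016 in Atf4 cells. Pcdha9 had 0.111, 0.273, 0.334, 0.13 and 0.13 CPM in Atf3 cells and 0.309, 0.197, 0.26, 0.175 and 0.144 CPM in Atf4 cells. Its control values were 0.803, 0.805, 0.545, 0.623 and 0.593 CPM. No library overlapped the control, with a log2 fold change of -1.77 ± 0.28, adjusted p = 1.38e-05 in Atf3 cells, and -1.62 ± 0.27, adjusted p = 4.10e-05 in Atf4 cells. Pcdhac1, the other alpha C-type gene, was too low to test, at 0.125 ± 0.0778 CPM in Atf3 cells, 0.0573 ± 0.0276 CPM in Atf4 cells and 0.173 ± 0.0631 CPM in control cells (SD, n = 5 each).

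**Figure D3:**
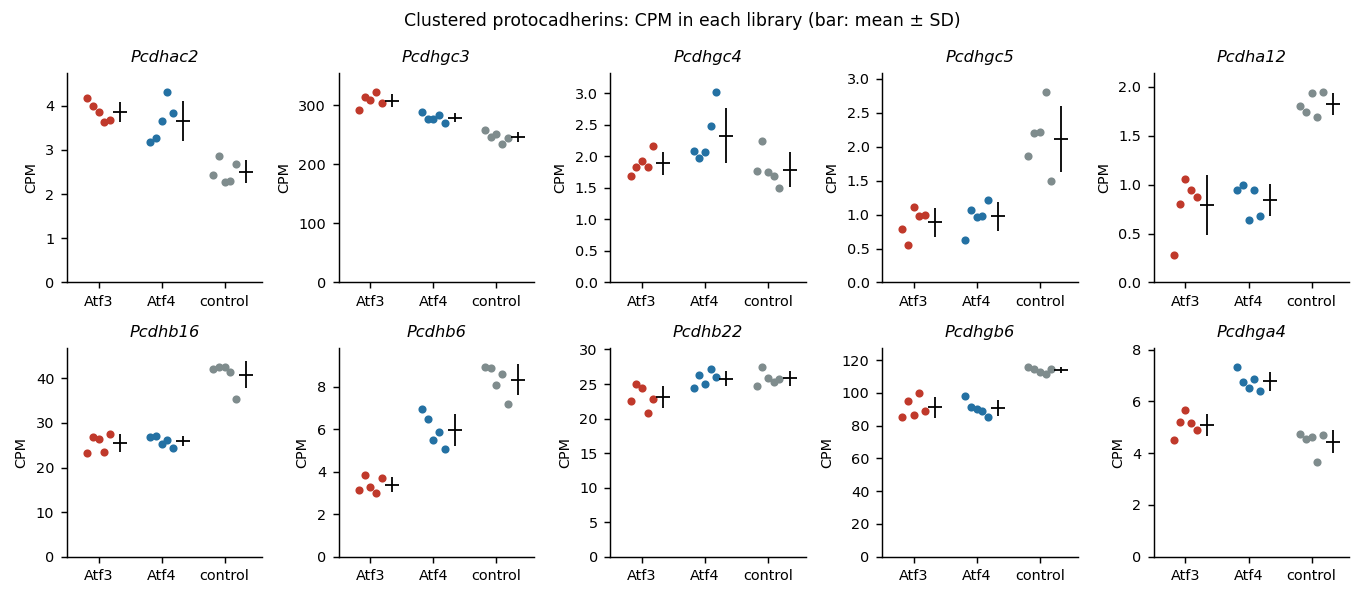
CPM (y axes, from 0) of 10 clustered protocadherin genes in each library (points) of the Atf3, Atf4 and control lines (x axis), with the mean ± SD of 5 libraries at the right of each line. Pcdhac2 and Pcdhgc3 are higher in both lines than in control cells and Pcdhgc5, Pcdha12, Pcdhb16 and Pcdhb6 are lower, with no overlap with the control libraries.

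The 10 tested non-clustered genes went mostly the other way. In the Atf3 line 7 were higher and 3 lower, and in Atf4 cells 6 were higher, 3 lower and 1 not called. Of all tested genes 36.8% were higher and 36.3% lower in Atf3 cells, and 31.9% and 29.7% in Atf4 cells. Of the 9951 tested genes at 10 CPM or more, 5152 were higher in Atf3 cells and 4377 in Atf4 cells. Among the non-clustered genes at that level, Pcdh1, Pcdh7, Pcdh11x and Pcdh19 were higher and Pcdh9 and Pcdh10 lower in both lines. In the Atf3 line all 7 lay above the control without overlap of libraries, as did 32% of all tested genes. In the Atf4 line 4 of the 6 did, against 26.1% of all tested genes. Their medians were 0.45 and 0.24 on the log2 scale. The sum over the 12 genes was 283 ± 16.1 CPM in Atf3 cells, 291 ± 9.25 CPM in Atf4 cells and 304 ± 9.09 CPM in control cells (SD, n = 5 each), and the most abundant of them, Pcdh10, was among those that fell.

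Windows around the start sites, from 250 bases before to 50 bases after, were found in RefSeq (GRCm38.p6) for 9 of the 12 non-clustered genes, with 10 windows. Since Atf3 and Atf4 bind the cAMP response element (CRE) TGACGTCA, its core TGACG, the C/EBP-ATF element TGATGNAA and the AP-1 element TGANTCA were searched on both strands in these windows and in all 32851 windows of the table. TGACGTCA contains TGACG, and the CRE core and AP-1 searches were added with results known. The CRE was in 1.79% of all windows, the C/EBP-ATF element in 3.97% and the AP-1 element in 7.81%, and none was in a window of these genes. The CRE core was in 20.8% of all windows and in the windows of Pcdh10 and Pcdh9, on bases 135 to 139 and 148 to 152 in Pcdh10 and 189 to 193 in Pcdh9. Shown are the windows of 3 genes that fell and of the gene that rose most, 5′ to 3′, with the CRE core in capitals (CGTCA is the core on the other strand). A match of letters is not a binding site.
Pcdh10 (chr3:45378148-45378447, plus strand): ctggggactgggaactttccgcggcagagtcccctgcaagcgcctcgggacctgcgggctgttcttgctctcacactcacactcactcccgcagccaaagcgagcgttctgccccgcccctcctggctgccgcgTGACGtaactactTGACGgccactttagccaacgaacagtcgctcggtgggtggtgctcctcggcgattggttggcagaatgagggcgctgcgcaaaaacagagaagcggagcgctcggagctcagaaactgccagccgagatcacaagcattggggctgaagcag
Pcdh9 (chr14:93890620-93890919, minus strand): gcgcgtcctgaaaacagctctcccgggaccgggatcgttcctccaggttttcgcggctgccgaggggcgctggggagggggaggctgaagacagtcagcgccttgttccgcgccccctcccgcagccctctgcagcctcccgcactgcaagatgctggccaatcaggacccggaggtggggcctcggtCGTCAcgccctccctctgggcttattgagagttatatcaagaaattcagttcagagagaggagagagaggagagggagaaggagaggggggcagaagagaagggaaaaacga
Pcdh15 (chr10:73821617-73821916, plus strand): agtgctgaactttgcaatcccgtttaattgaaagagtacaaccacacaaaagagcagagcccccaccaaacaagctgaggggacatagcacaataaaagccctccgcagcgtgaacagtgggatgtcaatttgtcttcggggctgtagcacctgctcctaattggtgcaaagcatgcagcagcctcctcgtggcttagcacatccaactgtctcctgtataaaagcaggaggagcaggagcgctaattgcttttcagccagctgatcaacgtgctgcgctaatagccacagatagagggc
Pcdh18 (chr3:49757267-49757566, minus strand): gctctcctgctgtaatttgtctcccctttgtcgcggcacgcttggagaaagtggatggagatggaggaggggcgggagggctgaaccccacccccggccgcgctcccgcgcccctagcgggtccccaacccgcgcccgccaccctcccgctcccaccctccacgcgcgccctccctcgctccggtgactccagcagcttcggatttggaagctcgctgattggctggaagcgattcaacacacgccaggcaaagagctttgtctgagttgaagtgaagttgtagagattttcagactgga

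Of the genes that fell, Pcdh10 (ENSMUSG00000049100, chr3:45378398-45435623, plus strand), a delta-2 protocadherin that binds the WAVE actin complex and guides axons, was the most abundant. It had 88.2, 104, 93.5, 93.7 and 95.3 CPM in Atf3 cells and 134, 117, 116, 117 and 102 CPM in Atf4 cells. Control libraries of this gene had 142, 144, 159, 154 and 152 CPM. All libraries of both lines lay below the control, the Atf3 line further than the Atf4 line, and the log2 fold change was -0.66 ± 0.06, adjusted p = 7.47e-09 in Atf3 cells, and -0.36 ± 0.06, adjusted p = 3.00e-05 in Atf4 cells. Pcdh9, a delta-1 protocadherin, had 27.7, 31.8, 33, 30.9 and 32.2 CPM in Atf3 cells and 28.6, 26.3, 27, 28.2 and 25.7 CPM in Atf4 cells. Against these, control cells had 37.2, 40.7, 36.4, 36.3 and 34.9 CPM. Both lines lay below all control libraries, here with the larger fall in Atf4 cells, and the log2 fold change was -0.25 ± 0.05, adjusted p = 0.000226 in Atf3 cells, and -0.45 ± 0.05, adjusted p = 4.62e-07 in Atf4 cells.

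Pcdh15, known as a part of the tip link of inner-ear hair cells and also transcribed in oligodendrocyte precursors, had 0.795, 0.892, 1.02, 1.19 and 1.33 CPM in Atf3 cells and 1.13, 1.21, 1.6, 1.37 and 1.2 CPM in Atf4 cells. Control cells had 3.03, 3.02, 2.97, 3.35 and 2.73 CPM. All 10 libraries lay below the control libraries, and the log2 fold change was -1.53 ± 0.13, adjusted p = 5.06e-09 in Atf3 cells, and -1.22 ± 0.13, adjusted p = 1.34e-07 in Atf4 cells. Markers of the oligodendrocyte lineage moved with it: 8 of 8 on the list were lower in Atf3 cells and 7 of 8 in Atf4 cells, where Olig1 was not called. Of all tested genes 36.3% were lower in Atf3 cells and 29.7% in Atf4 cells. The summed level of the 8 markers ranged over 3036 to 3877 CPM in Atf3 cells, 3596 to 4311 CPM in Atf4 cells and 4388 to 4921 CPM in control cells. Of the lineage's defining markers Sox10 averaged 0.0399, 0.0712 and 0.271 CPM and Pdgfra 1.65, 2.73 and 4.78 CPM in the Atf3, Atf4 and control lines, in that order. The part of these cells in the Pcdh15 result was not tested.

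Among the genes that rose, Pcdh18 (ENSMUSG00000037892, chr3:49743296-49757325, minus strand), a delta-2 protocadherin that binds the adaptor Dab1, changed most. It had 13.3, 11.1, 12.6, 10.3 and 11.1 CPM in Atf3 cells and 8.68, 9.74, 9.93, 10.3 and 11.5 CPM in Atf4 cells. The control libraries held 4.75, 4.94, 4.39, 5.22 and 5.26 CPM. Both lines were clear above the control, and the log2 fold change was 1.24 ± 0.08, adjusted p = 1.67e-10 in Atf3 cells, and 1.03 ± 0.08, adjusted p = 5.71e-09 in Atf4 cells. Pcdh19, the X-linked delta-2 gene whose mutation causes epilepsy in humans, had 13.5, 15.4, 18.4, 15 and 18 CPM in Atf3 cells and 12.1, 13.6, 14.6, 19.1 and 19.2 CPM in Atf4 cells. In control cells the values were 9.1, 11.4, 11.3, 11.3 and 11 CPM. All 10 libraries were above the control, of which replicate 1 was the lowest, and the log2 fold change was 0.57 ± 0.12, adjusted p = 0.000294 in Atf3 cells, and 0.53 ± 0.12, adjusted p = 0.000708 in Atf4 cells. Pcdh8, also delta-2 and induced by synaptic activity in rat neurons, was scarce, at 1.24, 1.27, 1.25, 1.36 and 1.44 CPM in Atf3 cells and 1.45, 1.15, 1.44, 1.17 and 1.04 CPM in Atf4 cells. Its control values were 0.931, 0.931, 1.12, 0.801 and 0.919 CPM. The Atf3 libraries lay above the control and 1 Atf4 library overlapped it, with a log2 fold change of 0.48 ± 0.13, adjusted p = 0.0023 in Atf3 cells, and 0.41 ± 0.13, adjusted p = 0.00859 in Atf4 cells. The Atf4 call was lost without control replicates 4 and 5, at 0.32 with adjusted p = 0.0779.

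The delta-1 genes, whose proteins carry a cytoplasmic motif that binds protein phosphatase 1, rose apart from Pcdh9. Pcdh1 had 34.4, 37.2, 37.6, 37 and 36.7 CPM in Atf3 cells and 34, 34.8, 35.4, 37.5 and 37.1 CPM in Atf4 cells. Control libraries of this gene had 25.3, 28, 27.9, 27.2 and 26.9 CPM. Both lines were clear of the control, with a log2 fold change of 0.44 ± 0.04, adjusted p = 1.27e-08 in Atf3 cells, and 0.40 ± 0.04, adjusted p = 7.73e-08 in Atf4 cells. Pcdh7 had 45.4, 47, 54.8, 43.1 and 51.9 CPM in Atf3 cells and 36, 39, 41.4, 48.5 and 49.9 CPM in Atf4 cells. Against these, control cells had 34.4, 36.2, 36.2, 32.4 and 35 CPM. The Atf3 libraries were above all control libraries and 1 Atf4 library was not, with a log2 fold change of 0.48 ± 0.08, adjusted p = 3.39e-05 in Atf3 cells, and 0.30 ± 0.08, adjusted p = 0.0033 in Atf4 cells. Pcdh11x, on the X chromosome, had 35.8, 40.9, 42.5, 35.4 and 44.7 CPM in Atf3 cells and 36.2, 37.2, 34.9, 40.2 and 39.7 CPM in Atf4 cells. Control cells had 32.9, 33.6, 34.8, 33.9 and 31.1 CPM. The lines did not overlap with the control, but the rise was small, with a log2 fold change of 0.26 ± 0.06, adjusted p = 0.000892 in Atf3 cells, and 0.18 ± 0.06, adjusted p = 0.0174 in Atf4 cells. With plain library totals it was not called in Atf3 cells (0.12, adjusted p = 0.0827) or the Atf4 line (0.14, adjusted p = 0.0555), and the Atf4 call was also lost without Atf4 replicate 4 (adjusted p = 0.0744), Atf4 replicate 5 (adjusted p = 0.0574), control replicate 5 (adjusted p = 0.072) or control replicates 4 and 5 (adjusted p = 0.112).

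Pcdh17, a delta-2 gene that like Pcdh10 recruits the WAVE complex, had 1.87, 2.04, 2.74, 1.81 and 2.17 CPM in Atf3 cells and 1.3, 1.45, 1.34, 1.63 and 2.28 CPM in Atf4 cells. The control libraries held 1.22, 1.74, 1.79, 1.77 and 1.26 CPM. Every Atf3 library was above the control and the log2 fold change was 0.46 ± 0.17, adjusted p = 0.02, while the Atf4 line overlapped the control and was not called (adjusted p = 0.868). The Atf3 call was lost without Atf3 replicate 3 (adjusted p = 0.0697), control replicate 1 (adjusted p = 0.0673), control replicate 5 (adjusted p = 0.0659), control replicates 4 and 5 (adjusted p = 0.0714), or with plain totals (adjusted p = 0.0936). Pcdh12, known from endothelial cells, and Pcdh20 were not tested. Endothelial markers summed to 13.4 to 19.6 CPM in Atf3 cells, 19.1 to 22.2 CPM in Atf4 cells and 45.4 to 49.8 CPM in control cells. Among them Kdr averaged 10.1, 16.4 and 44.3 CPM in the Atf3, Atf4 and control lines, in that order, and Cldn5 and Cdh5 averaged 0, 0.00281 and 0.00963 CPM and 0.00676, 0.08 and 0.117 CPM. The list did not move one way: of its 4 tested genes Tek (5.23, 3.58 and 1.95 CPM) and Flt1 (1.01, 0.86 and 0.543 CPM) were called higher in both lines, Kdr was lower in both and Pecam1 (0.0985, 0.175 and 0.171 CPM) was lower in Atf3 cells, with medians of 0.06 in Atf3 cells and 0.34 in Atf4 cells on the log2 scale.

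**Figure D4:**
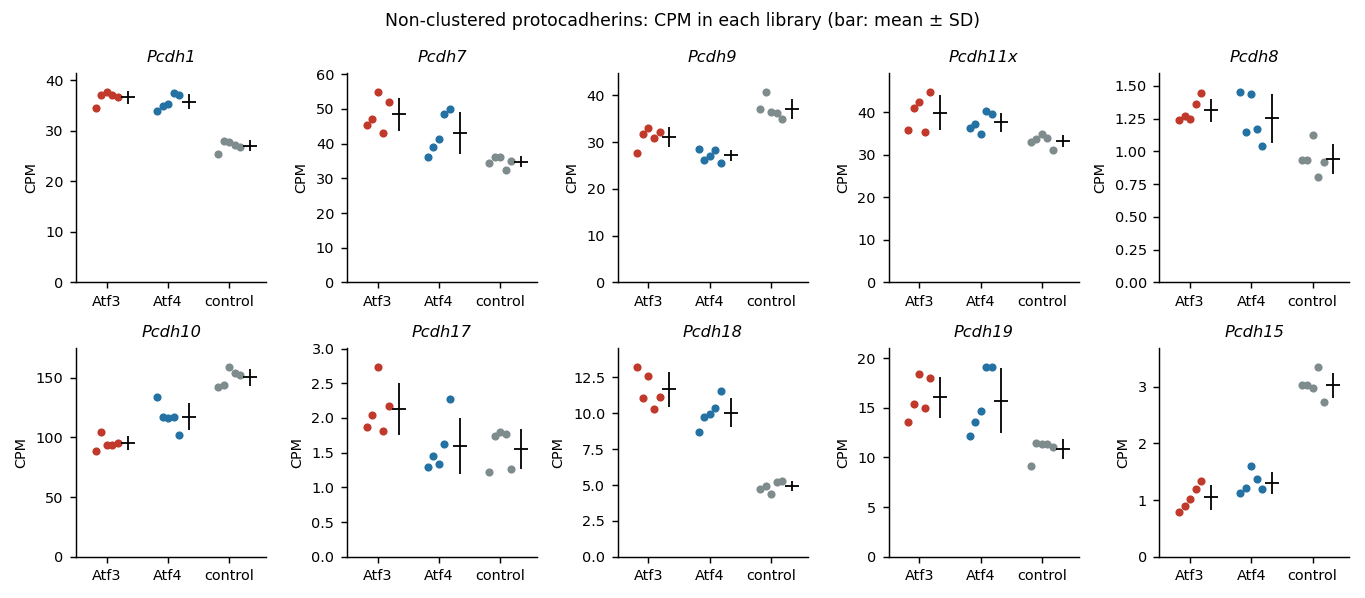
CPM (y axes, from 0) of the 10 tested non-clustered protocadherin genes in each library (points) of the Atf3, Atf4 and control lines (x axis), with the mean ± SD of 5 libraries at the right of each line. Pcdh9, Pcdh10 and Pcdh15 lie below the control libraries in both lines, and Pcdh1, Pcdh11x, Pcdh18 and Pcdh19 lie above them.

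Between the lines, 10 protocadherin genes were higher in Atf4 cells relative to Atf3 cells, 5 were lower and 39 were not called. Of all tested genes 43.6% were called, 19.7% higher and 23.9% lower. The split hangs on the scaling: with plain library totals 18 were higher and 1 was lower, and the median of all tested genes then stood at 0.11 in place of 0.01. Of the 10 higher genes 8 were beta genes, and no beta gene was lower. Pcdhb6 had the largest difference, 0.82 ± 0.10, adjusted p = 4.30e-06, and Pcdhb2, Pcdhb3, Pcdhb5 and Pcdhb11 also had no overlap between the Atf4 and Atf3 libraries, as 9.52% of all tested genes had upward and 16.3% downward. Pcdh10 was higher in Atf4 cells (0.30 ± 0.06, adjusted p = 0.00044), though the libraries overlapped. On the lower side Pcdhgb2 had the largest called gamma difference. It had 5.97, 5.11, 5.57, 4.53 and 5.13 CPM in Atf4 cells and 6.17, 6.55, 6.99, 6.94 and 6.36 CPM in Atf3 cells, beside 9.97, 10, 9.67, 8.89 and 9.19 CPM in control cells. Its Atf4 libraries were below all Atf3 libraries (-0.33 ± 0.07, adjusted p = 0.00127), as were those of Pcdhgc3 (-0.14 ± 0.03, adjusted p = 0.00209, and -0.04 with adjusted p = 0.326 under plain totals). Pcdh9 (-0.20 ± 0.05, adjusted p = 0.00478), Pcdh17 (-0.42 ± 0.17, adjusted p = 0.0492) and Pcdh18 (-0.22 ± 0.08, adjusted p = 0.0359) were also lower, with overlapping libraries, and under plain totals none of the 3 was called. The Pcdh17 call was also lost without Atf3 replicate 2, 3 or 5, Atf4 replicate 1, 2, 3 or 4, or control replicate 2, 3 or 4 (adjusted p = 0.0557 to 0.150), without control replicates 4 and 5 (adjusted p = 0.0575), and with the replicate block (0.0576), only the 2 lines (0.0683) or the filter at 1 CPM (0.0614). The Pcdh18 call was lost without Atf3 replicate 1 or 3 or Atf4 replicate 1, 2 or 3 (adjusted p = 0.0672 to 0.108), and with the replicate block (0.0584), only the 2 lines (0.0743) or the filter at 1 CPM (0.0598).

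**Figure D5:**
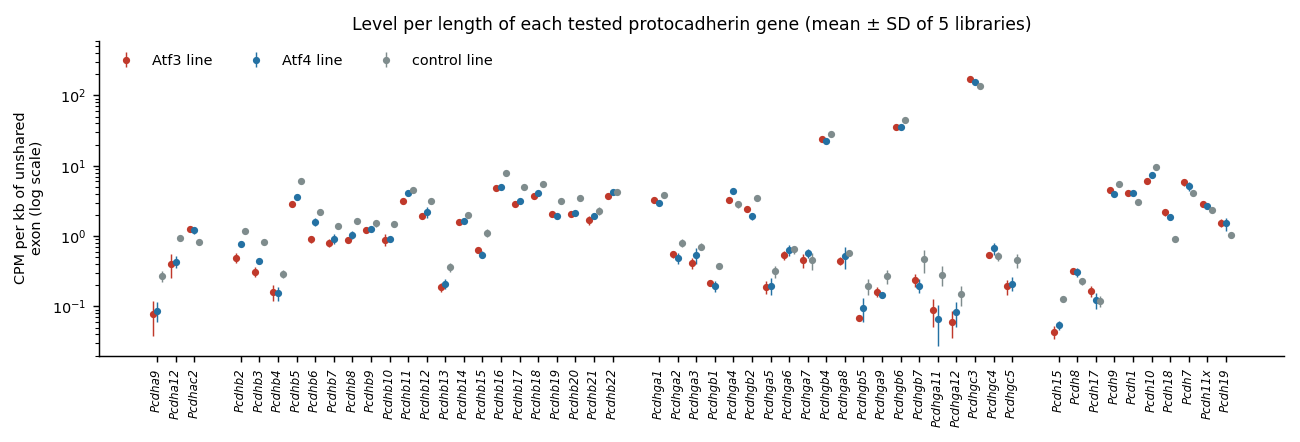
Mean level ± SD of each tested protocadherin gene in CPM per kb of unshared exon (y axis, log scale) in the Atf3, Atf4 and control lines, 5 libraries each, in chromosomal order within the alpha, beta, gamma and non-clustered groups (x axis). Pcdhgc3, Pcdhgb6 and Pcdhgb4 stand above all other members in every line.

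By level per length, Pcdhgc3 was followed by Pcdhgb6, with 35.6, 35.4 and 44.5 CPM per kb in the Atf3, Atf4 and control lines, and Pcdhgb4, with 23.9, 22.3 and 28.3. Pcdh10 came next with 6.04, 7.44 and 9.55, and Pcdhb16 was the highest beta gene with 4.87, 4.97 and 7.81. The alpha genes tested stayed at or under 1.28 CPM per kb.

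Genes that surround or act on protocadherins were counted from 4 lists. Beside these counts, 36.8% of all tested genes were higher and 36.3% lower in Atf3 cells, and 31.9% and 29.7% in Atf4 cells. Of 14 regulators of the clusters, 8 were higher and 1 lower in each line. These are abundant genes, with a sum of at least 1540 CPM in every library. Of the 9951 tested genes at 10 CPM or more, 5152 were higher in Atf3 cells and 4377 in Atf4 cells. The median log2 fold change of the 14 regulators was 0.15 in Atf3 cells and 0.21 in Atf4 cells. For all tested genes at 10 CPM or more it was 0.12 and 0.06. A joint rise was not tested. Ctcf, the insulator protein at protocadherin promoters, was higher (0.28 ± 0.03, adjusted p = 2.90e-08 in Atf3 cells, and 0.22 ± 0.03, adjusted p = 1.29e-06 in Atf4 cells), as was Smchd1, which silences clustered protocadherins in mice (0.22 ± 0.07, adjusted p = 0.0121 in Atf3 cells, and 0.30 ± 0.07, adjusted p = 0.00195 in Atf4 cells). Smc1a of cohesin and the histone methyltransferase gene Setdb1 rose in both lines (0.57 ± 0.04, adjusted p = 4.47e-10 and 0.60 ± 0.05, adjusted p = 4.66e-09 in Atf3 cells). The cohesin loader Nipbl was lower (-0.52 ± 0.08, adjusted p = 8.24e-06 in Atf3 cells, and -0.38 ± 0.08, adjusted p = 0.000352 in Atf4 cells). Of 17 processing and signalling partners, 6 were higher and 5 lower in Atf3 cells and 3 higher and 4 lower in Atf4 cells. The focal adhesion kinase Ptk2, which clustered protocadherins inhibit, was higher (1.20 ± 0.06, adjusted p = 4.96e-12 in Atf3 cells, and 0.59 ± 0.06, adjusted p = 1.49e-07 in Atf4 cells), as was Fyn (0.89 ± 0.03, adjusted p = 9.29e-14 in Atf3 cells, and 0.46 ± 0.03, adjusted p = 1.04e-09 in Atf4 cells). Nicastrin, Ncstn, a subunit of the gamma-secretase that cleaves protocadherins, was lower (-0.48 ± 0.05, adjusted p = 2.00e-08 in Atf3 cells, and -0.40 ± 0.05, adjusted p = 4.42e-07 in Atf4 cells).

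Other cadherins offered a comparison. Of 11 tested classical and type II cadherins, 3 were higher and 5 lower in Atf3 cells and 5 higher and 3 lower in Atf4 cells. Cdh22 rose most (2.64 ± 0.09, adjusted p = 5.76e-14 in Atf3 cells, and 2.34 ± 0.09, adjusted p = 5.42e-13 in Atf4 cells), and N-cadherin, Cdh2, rose less (0.41 ± 0.03, adjusted p = 1.93e-10 in Atf3 cells, and 0.27 ± 0.03, adjusted p = 9.78e-08 in Atf4 cells). Of 13 tested other superfamily genes, 9 were lower and 1 higher in Atf3 cells and 7 lower and 1 higher in Atf4 cells. The planar polarity cadherin Celsr1 was lower (-1.28 ± 0.07, adjusted p = 1.52e-11 in Atf3 cells, and -0.69 ± 0.07, adjusted p = 1.17e-07 in Atf4 cells), as was Celsr3 (-1.26 ± 0.13, adjusted p = 3.97e-08 in Atf3 cells, and -1.03 ± 0.12, adjusted p = 8.18e-07 in Atf4 cells), and Cdhr1 was higher (1.53 ± 0.12, adjusted p = 8.92e-10 in Atf3 cells, and 1.12 ± 0.12, adjusted p = 1.62e-07 in Atf4 cells). Next to the clusters, Taf7, which lies between the beta and gamma genes, was lower (-0.27 ± 0.07, adjusted p = 0.00117 in Atf3 cells and -0.33 ± 0.07, adjusted p = 0.000276 in Atf4 cells). The protocadherin Pcdh1, which was higher in both lines, also lies within 500 kb but was not counted among the neighbours. Of 23 other tested genes within 500 kb outside the clusters 8 were higher and 6 lower in Atf3 cells and 5 higher and 4 lower in Atf4 cells, with medians of 0.04 and -0.03. These neighbours were chosen by position with results known.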

How the data were processed

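RNA was column-purified, and the NEBNext Ultra kit, which does not mark strand, was used for libraries read on a NovaSeq, per the labels' protocols. The authors deposited unnormalized whole-number counts for every gene. Per the submitters' processing notes, STAR, edgeR and mm10 were used. How shared reads were handled, which program counted, with which strand setting, and all versions were not given in the sources used here. Groups and replicate numbers came from the titles. Symbols, coordinates and exon overlaps came from GENCODE M21 on GRCm38, which mm10 also denotes.

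All 15 libraries were fitted together in edgeR 4.0.16 under R 4.3.3, with 1 coefficient per line, TMM scaling, filterByExpr and Benjamini-Hochberg adjustment over 18244 genes. The fit was tested on counts simulated from its own model with known changes. It recovered 48 to 56% of 1.25-fold changes and 72 to 86% of 1.5-fold changes, so a gene that was not called can still differ. Replicate pairs differed by more than sampling noise (5.47 to 53.4 as chi-square over degrees of freedom), so each library was counted. This does not show that the libraries of a line came from separate cultures. The alternatives were DESeq2 1.42.0, limma-voom from limma 3.58.1, RLE scaling, plain totals, 2 other filters, only the lines compared, a replicate block, and leaving out libraries.

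Named genes were the non-clustered genes reaching 1 CPM in a line, the C-type genes, Ctcf and Smchd1. They also included the 3 genes of highest mean CPM in each cluster, and its largest called rise and fall in each comparison. Of each of the 4 lists of other genes, at most 2 rising and 2 falling genes were named by adjusted p. Members and lists were chosen with earlier results of these data known.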

Additional observations from a re-analysis of the deposited data

Results flagged for a closer look

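In 6 of 96 groups of 5 libraries, a library lay far from the other 4 by a gap test at the 95% level, which chance gives in about 1 in 20 groups. Pcdhb3 had 1.82 CPM in Atf4 replicate 4, against 1.58 to 1.64 CPM in the other Atf4 libraries. Pcdh1 had 34.4 CPM in Atf3 replicate 1, against 36.7 to 37.6 CPM in the others of that line. The summed alpha genes had 5.57 CPM in Atf4 replicate 4, against 4.56 to 4.79 CPM. The other 3 were control libraries: Pcdhb16 had 35.4 CPM in replicate 5, against 41.4 to 42.6 CPM, Pcdhga4 had 3.66 CPM in replicate 4, against 4.55 to 4.74 CPM, and Pcdh19 had 9.10 CPM in replicate 1, against 11 to 11.4 CPM.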

How the results depend on the processing

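Of 720 recounts of called genes, 676 stayed within 1.5 times the reported count, and of 1580 values of named genes 1510 kept their direction and call, 57 lost the call, 12 gained it and 1 turned. Pcdhgb4 in Atf4 cells against the Atf3 line turned to 0.00636 under plain library totals. Plain totals moved the median of all tested genes to -0.16 (Atf3 against control), -0.04 (Atf4 against control) and 0.11 (Atf4 against Atf3), and the higher share of all calls to 38.4%, 46.8% and 72.3%, beside 50.3%, 51.8% and 45.2% with TMM. Between Atf4 and Atf3 plain totals gave 18 higher and 1 lower protocadherin, 13 higher beta, 3 higher and 1 lower gamma, and 2 higher and 0 lower non-clustered genes. The filter at 1 CPM, which tests fewer genes, left 1 lower alpha gene in each line, 8 (Atf3) and 7 (Atf4) lower gamma genes, and, between Atf4 and Atf3, 3 lower protocadherins with 1 non-clustered among them; no filter gave 4 lower alpha genes in Atf4 cells. Higher gamma genes in Atf3 cells numbered 1 under the 1 CPM filter, only the 2 lines, plain totals, the replicate block and without control replicates 4 and 5. With only the 2 lines, lower genes between Atf4 and Atf3 numbered 3, with 1 non-clustered.

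Leaving out each library gave 1 to 2 higher gamma genes in Atf3 cells. Between Atf4 and Atf3 it gave 3 to 6 lower protocadherins, 0 to 1 lower alpha, 1 to 2 higher and 2 to 4 lower gamma, and 1 to 2 higher and 1 to 4 lower non-clustered genes. Same-numbered libraries did not deviate together (correlations of -0.079 to 0.098, and 2 of 15 libraries best with their own number), so the numbers share no more than a label; with the replicate block 9 genes were higher and 40 lower in Atf3 cells, 11 and 38 in Atf4 cells, and 10 and 3 between Atf4 and Atf3, with 1 lower non-clustered gene. Except where the change follows from fewer genes tested or fewer libraries, the cause was not tested. The absence of the 15 untested genes was not shown. Shared exons limit Pcdhga10, which has no exon base of its own, and Pcdha4, which has 404. Of its words, Pcdha4 shared 97.2% with other genes' transcripts, and the Pcdha11 identifier ENSMUSG00000102206 shared 96.2%. Whether depth or shared exons limit the other untested genes was not tested.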

Other observations

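Marker lists of other cell types gave the following counts of tested genes. Beside them, 36.8% of all tested genes were higher and 36.3% lower in Atf3 cells, and 31.9% and 29.7% in Atf4 cells. Of 6 precursor markers 2 were higher and 1 lower in Atf3 cells and 3 higher and 2 lower in Atf4 cells. Of 7 neuronal markers 5 were lower in Atf3 cells, and 1 was higher and 3 lower in Atf4 cells. Of 6 astrocyte markers 1 was higher and 3 lower in Atf3 cells and 1 higher and 5 lower in Atf4 cells. Of 4 endothelial markers 2 were higher and 2 lower in Atf3 cells and 2 higher and 1 lower in Atf4 cells. The 1 tested microglia marker, P2ry12, was higher in both lines, and the 1 tested mural and fibroblast marker, Col1a1, was lower in both. Both were near the floor. Over all libraries the whole microglia list summed to 0.386 to 1.36 CPM and the whole mural and fibroblast list to 0.400 to 0.931 CPM. Of 3 ependymal markers 2 were higher in Atf3 cells and 1 in Atf4 cells. The part of these cell types in the protocadherin results was not tested.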
